A study of Mus musculus with 8 samples.

Results

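The 10 genes described here encode the core transcription factors of the heart muscle, *Nkx2-5*, *Gata4*, *Gata6*, *Mef2a*, *Mef2c*, *Hand1*, *Hand2*, *Srf* and *Myocd*, together with *Prdm16*, a regulator of the compact ventricular wall. They were chosen by name, and all 10 were matched to 1 Ensembl identifier each among the 53465 genes of a table of ventricular RNA at embryonic day 15.5 (E15.5). Each of 8 libraries came from 1 ventricle sample, 4 from wild-type (WT) embryos and 4 from embryos that overproduce neuregulin-1, called *Nrg1GOF*. The *Nrg1GOF* embryos combine a Rosa26 allele that carries *Nrg1* with a Cre driver, spelled Nkx5.5-Cre in the genotype field of the labels and Nkx2.5-Cre in the title of the series. The labels do not say whether the WT embryos carried the transgene or the driver alone, which side of the heart a ventricle came from, or which embryos were littermates. An *Nkx2-5* driver is active in the cardiac lineage, and neuregulin-1 is a secreted ligand that can also reach cells that do not make it. Whether the driver replaces a copy of *Nkx2-5* is not given in the sources used here.

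These factors bind DNA as a network and share targets. NKX2-5 is a homeodomain protein and GATA4 and GATA6 are zinc finger proteins that together switch on sarcomere and natriuretic peptide genes. MEF2A, MEF2C and SRF are MADS-box proteins that bind AT-rich elements in muscle genes, and myocardin, the product of *Myocd*, is a coactivator that acts through SRF. HAND1 and HAND2 are basic helix-loop-helix proteins needed for the growth of the ventricles, of which HAND1 is best known from the left ventricle and HAND2 from the right. PRDM16, a zinc finger protein with a PR domain, maintains compact wall identity in the left ventricle. Most of these genes are also used outside heart muscle cells, for instance *Gata4*, *Gata6* and *Hand2* in endocardium, epicardium and mesenchyme, *Mef2c* in endothelium and *Myocd* in smooth muscle.

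The sites that these proteins recognise are shown here in the 250 bases before the start of 7 genes whose values are given in the following paragraphs, so that the letters can be set beside the changes. The sequences are those of RefSeq on GRCm38.p6, read 5′ to 3′ on the strand of the gene. Capitals mark the CArG box, the element of SRF, in *Srf* itself, *Vcl* and *Cnn2*, the MEF2 box in *Xirp2* and *Pgam2*, and the GATA motif in *Hand2* and *Nppb*.
*Srf* (chr17:46556163-46556412, minus strand): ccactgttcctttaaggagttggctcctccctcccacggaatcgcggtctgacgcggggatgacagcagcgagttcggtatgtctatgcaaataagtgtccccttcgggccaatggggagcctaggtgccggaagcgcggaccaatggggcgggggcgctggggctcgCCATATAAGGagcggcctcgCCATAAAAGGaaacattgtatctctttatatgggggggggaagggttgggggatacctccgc
*Vcl* (chr14:20929148-20929397, plus strand): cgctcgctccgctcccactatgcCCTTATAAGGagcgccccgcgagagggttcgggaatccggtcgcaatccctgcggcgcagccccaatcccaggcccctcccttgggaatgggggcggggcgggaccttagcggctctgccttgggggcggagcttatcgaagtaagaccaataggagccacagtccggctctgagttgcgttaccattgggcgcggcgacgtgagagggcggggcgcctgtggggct
*Cnn2* (chr10:79988350-79988599, plus strand): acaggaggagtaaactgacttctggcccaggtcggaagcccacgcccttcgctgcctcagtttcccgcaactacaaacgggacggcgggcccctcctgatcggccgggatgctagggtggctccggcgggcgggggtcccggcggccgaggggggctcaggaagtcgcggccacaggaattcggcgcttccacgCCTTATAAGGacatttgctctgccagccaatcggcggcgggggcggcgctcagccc
*Xirp2* (chr2:67445752-67446001, plus strand): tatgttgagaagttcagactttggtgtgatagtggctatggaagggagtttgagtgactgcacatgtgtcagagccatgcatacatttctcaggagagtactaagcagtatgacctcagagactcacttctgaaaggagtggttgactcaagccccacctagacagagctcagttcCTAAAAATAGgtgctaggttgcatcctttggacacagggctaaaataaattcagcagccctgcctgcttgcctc
*Pgam2* (chr11:5803797-5804046, minus strand): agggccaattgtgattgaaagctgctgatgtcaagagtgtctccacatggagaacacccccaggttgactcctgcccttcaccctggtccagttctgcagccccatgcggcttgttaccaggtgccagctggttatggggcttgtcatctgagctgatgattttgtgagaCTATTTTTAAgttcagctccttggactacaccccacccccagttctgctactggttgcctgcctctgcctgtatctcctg
*Hand2* (chr8:57320733-57320982, plus strand): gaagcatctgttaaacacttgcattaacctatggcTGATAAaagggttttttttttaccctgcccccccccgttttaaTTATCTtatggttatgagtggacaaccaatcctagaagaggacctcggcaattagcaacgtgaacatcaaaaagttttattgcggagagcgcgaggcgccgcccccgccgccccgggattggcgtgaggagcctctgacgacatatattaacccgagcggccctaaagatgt
*Nppb* (chr4:147985650-147985899, plus strand): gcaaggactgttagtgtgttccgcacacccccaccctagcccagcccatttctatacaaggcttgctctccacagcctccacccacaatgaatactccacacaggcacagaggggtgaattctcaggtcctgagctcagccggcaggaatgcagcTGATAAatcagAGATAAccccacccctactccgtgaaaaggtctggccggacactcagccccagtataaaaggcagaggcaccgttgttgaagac

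*Srf* held 2 CArG boxes, which began at positions -82 and -62 from its start. RefSeq windows of 250 bases were searched on both strands for the CArG box, the MEF2 box and the GATA motif, which is GATA with A or T before it and A or G after it. The CArG and MEF2 patterns cannot match the same 10 bases. A CArG box stood in 1.47% of the 32851 windows of all genes, a MEF2 box in 2.92% and a GATA motif in 26.5%. Among the core factors, 8 windows of 6 genes (*Nkx2-5*, *Mef2a*, *Mef2c*, *Hand2*, *Srf* and *Prdm16*) were searched, of which 1 held a CArG box (*Srf*), 1 a GATA motif (*Hand2*) and 0 a MEF2 box. A match describes letters and is not evidence of binding.

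Library totals ranged from 8038641 to 26786039 counts, and *Nrg1GOF* library 4 was the shallowest. WT libraries 1 and 2 resembled each other more than they did WT libraries 3 and 4, with a correlation of log2 levels across genes of 0.9886 within the former pair, 0.9908 within the latter and 0.9802 to 0.9805 between them. The labels do not say what the pairs share, so edgeR was also run against each pair alone. Levels are counts scaled to a common library size (CPM), with library sizes adjusted by the trimmed mean of M-values, and a gene is called where the quasi-likelihood test of edgeR gave an adjusted p under 0.05 over all 15580 tested genes. Of these genes 28.7% were called, 15.9% higher and 12.8% lower in *Nrg1GOF*. An offset for GC content and length changed the share of calls that were higher from 55.4% to 44.0%, and scaling by library total alone changed it to 65.4%.

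All 10 core factors passed the filter on low counts. In *Nrg1GOF*, 5 of them were called lower (*Myocd*, *Gata6*, *Prdm16*, *Mef2a* and *Srf*), 1 was called higher (*Hand1*), and 4 were not called (*Nkx2-5*, *Gata4*, *Mef2c* and *Hand2*). The share called was thus 60.0%, beside 28.7% of all tested genes. In tissue samples such as these, fewer cells of a type and less RNA per cell cannot be told apart. Of 10 cardiomyocyte markers 7 were also called lower in *Nrg1GOF* (median log2 fold change -0.43), beside 12.8% of all tested genes. The changes were small. Log2 fold changes ran from -0.50 to 0.38 with a median of -0.22, beside a median of -0.012 over all tested genes, and the median absolute log2 fold change was 0.26 against 0.20 over all tested genes and 0.46 over called genes. In 7 of the 10 genes the libraries of the genotypes did not overlap (1 higher, 6 lower), which held for 30.7% of all tested genes. The number of core factors called was 4 of 10 with WT libraries 1 and 2 as the sole controls, where 18.6% of all tested genes were called. It was 2 of 10 with WT libraries 3 and 4 as the sole controls, where the share of all tested genes was 27.7%, so that the share of core factors was then not above that of all genes. It was 2 of 10 (*Gata6* and *Myocd*) when each WT pair was summed to 1 sample, beside 15.3% of all tested genes, and 3 of 10 without *Nrg1GOF* library 2, beside 20.4%. With the summed level of atrial markers as a covariate 0 were called in edgeR, 3 had an unadjusted p under 0.05, and this covariate correlated with genotype at 0.985. The *Nkx2-5* log2 fold change was the one among the 10 whose sign depended on the scaling of the libraries, being -0.03 under the scaling used and 0.013 under scaling by library totals.

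**Figure D1:**
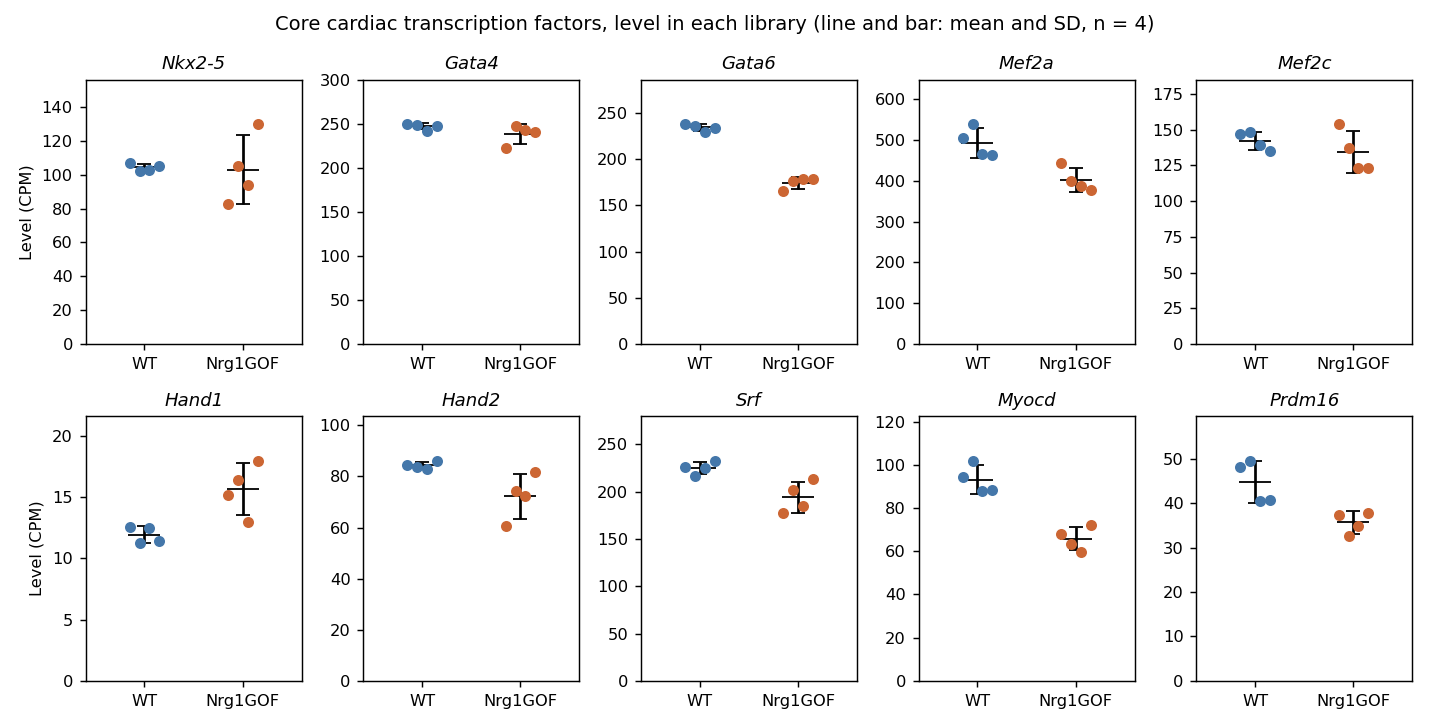
Level of each of the 10 core factors in CPM (y axis, from 0) in the 4 WT and 4 *Nrg1GOF* libraries (points), with the mean and SD of each group. *Gata6*, *Mef2a*, *Hand2*, *Srf*, *Myocd* and *Prdm16* lie lower in every *Nrg1GOF* library than in any WT library, *Hand1* lies higher, and the other 3 overlap.

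*Nkx2-5* (ENSMUSG00000015579, GRCm38 chromosome 17, 26838664 to 26845009) was examined as the gene that lends its name to the driver. Its level was 107, 102, 103 and 105 CPM in WT libraries 1 to 4 and 82.6, 105, 93.8 and 130 CPM in *Nrg1GOF* libraries 1 to 4. The WT libraries lay close together, while the *Nrg1GOF* libraries fell on both sides of them. The means were 104 ± 2.13 CPM for WT against 103 ± 20 CPM for *Nrg1GOF* (n = 4 per genotype, SD), a log2 difference of -0.03 ± 0.12 (SE) at an adjusted p of 0.887. The coefficient of variation was 2.0% in WT and 19.5% in *Nrg1GOF*, the widest spread among the 10 factors. The *Nkx2-5* transcript is rich in G and C (67.1%). In *Nrg1GOF* library 1, where *Nkx2-5* was lowest, genes with 60% or more GC differed from genes with less than 45% GC by -0.27 in their median log2 deviation from the group mean. In *Nrg1GOF* library 4, where *Nkx2-5* was highest, the same difference was 0.18, and in WT libraries it stayed between -0.08 and 0.06. With an offset for GC content and length, the log2 fold change of *Nkx2-5* was -0.18 (adjusted p = 0.0896). The genes most like *Nkx2-5* over the 8 libraries by Pearson's r of log2 CPM were *Kcng2* (r = 0.980), *Akt1s1* (r = 0.977) and *Dnlz* (r = 0.975), given as a description over 8 points.

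The GATA genes did not move alike. *Gata4* (ENSMUSG00000021944, GRCm38 chromosome 14, 63198922 to 63271692) was at 250, 249, 242 and 248 CPM in WT libraries 1 to 4 and 222, 248, 243 and 241 CPM in *Nrg1GOF* libraries 1 to 4. The genotypes overlapped, and the difference was not called, with a log2 difference of -0.05 ± 0.05 (SE) at an adjusted p of 0.493. With an offset for GC content and length it was -0.16 (adjusted p = 0.0566, and 0.0503 with a replicate block added). *Gata6* (ENSMUSG00000005836, GRCm38 chromosome 18, 11052064 to 11085635) was at 238, 236, 229 and 234 CPM in WT libraries 1 to 4 and 165, 176, 178 and 178 CPM in *Nrg1GOF* libraries 1 to 4. Every *Nrg1GOF* library was lower than every WT library, and each group was narrow. The means were 234 ± 4.06 CPM for WT against 174 ± 6.33 CPM for *Nrg1GOF* (n = 4 per genotype, SD), a log2 difference of -0.43 ± 0.05 (SE) at an adjusted p of 0.000179, which is the smallest adjusted p among the core factors. *Gata6* was called under each of 24 alternatives other than the atrial covariate, with log2 fold changes from -0.53 to -0.39. An annotated gene on the opposite strand, *1010001N08Rik*, overlaps *Gata6*, and whether counting used strand is not given in the sources used here. The genes whose pattern over the 8 libraries was most like that of *Gata6* were *Mthfd1* (r = 0.999), *Sh2d4a* (r = 0.994) and *Igfbpl1* (r = 0.994), and these coefficients largely carry the difference between the groups.

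A ratio of paired genes within a library depends little on how libraries are scaled. The log2 ratio of *Gata4* to *Gata6* was 0.07, 0.07, 0.08 and 0.09 in WT libraries 1 to 4 and 0.43, 0.49, 0.45 and 0.44 in *Nrg1GOF* libraries 1 to 4. In WT the balance of the pair was therefore near even in CPM, and in *Nrg1GOF* it lay on the side of *Gata4*, by 0.38 on the log2 scale (exact permutation test, two-sided, p = 0.0286, adjusted p = 0.0381 over the 4 ratios tested). With 4 libraries against 4, 0.0286 is the smallest p this test can give. The test takes the 4 WT libraries as separate samples, although they resembled each other in pairs. None of the 4 ratios was tested against each WT pair alone.

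The MEF2 genes are the A and C members of a family that drives muscle differentiation. *Mef2a* (ENSMUSG00000030557, GRCm38 chromosome 7, 67231163 to 67372858) was the most abundant of the 10 in CPM, at 505, 539, 464 and 463 CPM in WT libraries 1 to 4 and 444, 399, 388 and 378 CPM in *Nrg1GOF* libraries 1 to 4. The groups did not overlap, although *Nrg1GOF* library 1 came close to WT libraries 3 and 4. The means were 492 ± 36.6 CPM for WT against 402 ± 29.1 CPM for *Nrg1GOF* (n = 4 per genotype, SD), a log2 difference of -0.29 ± 0.07 (SE) at an adjusted p of 0.0126. The call was lost with WT libraries 3 and 4 as the sole controls (-0.20, adjusted p = 0.0954) and when each WT pair was summed to 1 sample (-0.28, adjusted p = 0.0754). *Mef2a* counts were not whole in any of the 8 libraries, which RSEM gives where reads fit more than 1 gene, and *Gm44667*, *Gm44668* and *Lysmd4* overlap it. *Mef2c* (ENSMUSG00000005583, GRCm38 chromosome 13, 83504034 to 83667080) was at 147, 148, 139 and 135 CPM in WT libraries 1 to 4 and 154, 137, 123 and 123 CPM in *Nrg1GOF* libraries 1 to 4. *Nrg1GOF* library 1 was the highest and *Nrg1GOF* libraries 3 and 4 the lowest of the 8, so the groups overlapped, with a log2 difference of -0.08 ± 0.08 (SE) at an adjusted p of 0.492. The log2 ratio of *Mef2a* to *Mef2c* ran from 1.74 to 1.87 in WT and from 1.52 to 1.65 in *Nrg1GOF*, a difference of -0.21 (exact permutation test, p = 0.0286, adjusted p = 0.0381). Both transcripts are poor in G and C (42.0% for *Mef2a*, 40.8% for *Mef2c*), and both were highest among *Nrg1GOF* libraries in library 1, the reverse of *Nkx2-5*. Among the other factors, the lowest *Nrg1GOF* library was library 1 for *Gata4* (57.4% GC) and *Gata6* (55.3% GC), library 2 for *Prdm16* (53.3% GC) and library 3 for *Hand1* (57.0% GC) and *Myocd* (49.9% GC). The part of GC content in these orders was not tested.

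*Hand1* was the core factor that was called higher. *Hand1* (ENSMUSG00000037335, GRCm38 chromosome 11, 57828705 to 57832818) was at 12.6, 11.3, 12.5 and 11.4 CPM in WT libraries 1 to 4 and 15.2, 16.4, 13.0 and 18 CPM in *Nrg1GOF* libraries 1 to 4. These are low levels, resting on 144 to 345 counts per library, and the lowest *Nrg1GOF* library was just above the highest WT library. The means were 12 ± 0.685 CPM for WT against 15.7 ± 2.09 CPM for *Nrg1GOF* (n = 4 per genotype, SD), a log2 difference of 0.38 ± 0.11 (SE) at an adjusted p of 0.0237. The call held under 16 of 24 alternatives other than the atrial covariate, all with a positive log2 fold change (0.27 to 0.47). It was lost with either WT pair as the sole controls (adjusted p = 0.101 and 0.0711), with the WT pairs summed (adjusted p = 0.112), with the offset for GC content and length (adjusted p = 0.0747, and 0.0823 with a replicate block added) and without *Nrg1GOF* library 2 (0.0762), WT library 2 (0.058) or WT library 4 (0.0667).

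*Hand2* (ENSMUSG00000038193, GRCm38 chromosome 8, 57320983 to 57324633) was at 84.3, 83.6, 83.0 and 86.2 CPM in WT libraries 1 to 4 and 60.7, 74.2, 72.2 and 81.8 CPM in *Nrg1GOF* libraries 1 to 4. Every *Nrg1GOF* library was lower than every WT library, with *Nrg1GOF* library 1 lowest, but the difference was not called, with a log2 difference of -0.23 ± 0.08 (SE) at an adjusted p of 0.0598. It was called under 8 of 24 alternatives, among them DESeq2 (adjusted p = 0.0365), limma-voom (0.0386), a replicate block (0.043), an offset for GC content and length (-0.35, adjusted p = 0.00179) and the fit without *Nrg1GOF* library 4 (adjusted p = 0.0234). With WT libraries 1 and 2 or WT libraries 3 and 4 as the sole controls it was not called (adjusted p = 0.17 and 0.138). Without *Nrg1GOF* library 1 the log2 difference was -0.15 (adjusted p = 0.0897). *Hand2* overlaps *Hand2os1* on the opposite strand. The log2 ratio of *Hand1* to *Hand2* ran from -2.87 to -2.68 in WT and from -2.42 to -1.96 in *Nrg1GOF*. The shift of 0.60 towards *Hand1* was the largest of the 4 ratios (exact permutation test, p = 0.0286, adjusted p = 0.0381), and the libraries of the genotypes did not overlap, while *Hand2* remained the more abundant gene in CPM in each.

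*Srf* and *Myocd*, the factor and its coactivator, were both lower. *Srf* (ENSMUSG00000015605, GRCm38 chromosome 17, 46548329 to 46556175), whose CArG boxes are printed in its promoter, was at 226, 217, 225 and 233 CPM in WT libraries 1 to 4 and 177, 202, 185 and 213 CPM in *Nrg1GOF* libraries 1 to 4. The highest *Nrg1GOF* library lay just under the lowest WT library, and *Nrg1GOF* libraries 1 and 4 were the lowest and highest of their group, as they were for *Nkx2-5* and *Hand2* (GC content 64.4% for *Srf* and 59.3% for *Hand2*). The means were 225 ± 6.81 CPM for WT against 194 ± 15.9 CPM for *Nrg1GOF* (n = 4 per genotype, SD), a log2 difference of -0.22 ± 0.06 (SE) at an adjusted p of 0.0306. The call held under 14 of 24 alternatives other than the atrial covariate. When single libraries were dropped it held in 2 of 8 fits (without *Nrg1GOF* library 4 or WT library 2), and adjusted p ran from 0.0148 to 0.0804. It was lost with WT libraries 1 and 2 (adjusted p = 0.146) or WT libraries 3 and 4 (0.0646) as the sole controls, with the WT pairs summed (0.149) and with scaling by library total alone (-0.17, adjusted p = 0.062). With an offset for GC content and length the log2 difference was -0.36 (adjusted p = 0.00252). *Gm26904* overlaps it on the opposite strand. *Myocd* (ENSMUSG00000020542, GRCm38 chromosome 11, 65176561 to 65269989) was at 94.2, 102, 87.7 and 88.4 CPM in WT libraries 1 to 4 and 68.2, 63.4, 59.7 and 72.0 CPM in *Nrg1GOF* libraries 1 to 4. All *Nrg1GOF* libraries were well below all WT libraries, and WT libraries 1 and 2 were above WT libraries 3 and 4. The means were 93.0 ± 6.51 CPM for WT against 65.8 ± 5.37 CPM for *Nrg1GOF* (n = 4 per genotype, SD), a log2 difference of -0.50 ± 0.07 (SE) at an adjusted p of 0.000833, the largest change among the core factors, and it was called under each of the 24 alternatives (-0.58 to -0.42). The log2 ratio of *Myocd* to *Srf* ran from -1.39 to -1.09 in WT and from -1.66 to -1.37 in *Nrg1GOF*. These ranges overlapped, and the difference of -0.28 did not pass the test (exact permutation test, p = 0.0571, adjusted p = 0.0571).

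**Figure D2:**
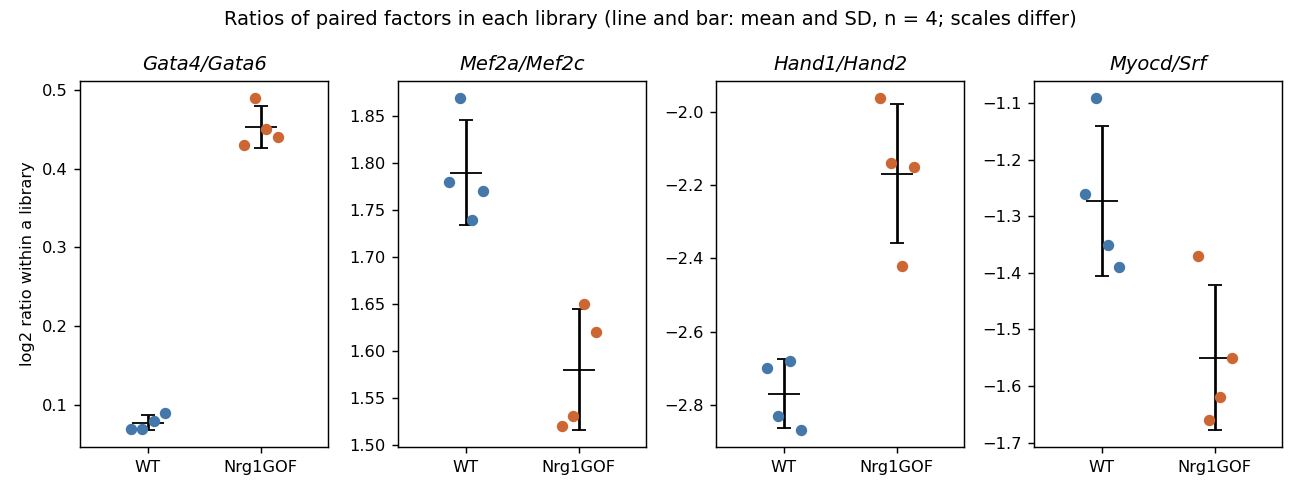
Log2 ratio of paired factors within each library (points; y axes differ between panels) for *Gata4*/*Gata6*, *Mef2a*/*Mef2c*, *Hand1*/*Hand2* and *Myocd*/*Srf*, with group mean and SD. The genotypes are separate in the panels of *Gata4*/*Gata6*, *Mef2a*/*Mef2c* and *Hand1*/*Hand2* and overlap in that of *Myocd*/*Srf*.

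*Prdm16* (ENSMUSG00000039410, GRCm38 chromosome 4, 154316125 to 154636873) was at 48.2, 49.6, 40.5 and 40.8 CPM in WT libraries 1 to 4 and 37.4, 32.5, 34.8 and 37.9 CPM in *Nrg1GOF* libraries 1 to 4. The groups did not overlap, but WT fell into its pairs, with libraries 3 and 4 close to the highest *Nrg1GOF* library. The means were 44.8 ± 4.78 CPM for WT against 35.6 ± 2.49 CPM for *Nrg1GOF* (n = 4 per genotype, SD), a log2 difference of -0.33 ± 0.08 (SE) at an adjusted p of 0.0153. Taken against WT libraries 1 and 2, the log2 difference was -0.46 (adjusted p = 0.00505), while WT libraries 3 and 4 gave -0.19 (adjusted p = 0.107). With the WT pairs summed it was -0.32 (adjusted p = 0.0623), and without *Nrg1GOF* library 2 it was -0.29 (adjusted p = 0.0552). *B230104I21Rik*, *Gm13133* and *Gm13134* overlap *Prdm16* on the opposite strand.

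Levels can be set against each other between genes only per length. Divided by the longest annotated transcript, WT levels were highest for *Mef2a* (88.9 ± 6.61 CPM per kb, SD, n = 4) and *Srf* (86.0 ± 2.60 CPM per kb), which overlapped. *Gata4* (72.7 ± 1.03 CPM per kb), *Nkx2-5* (68.3 ± 1.40), *Gata6* (61.9 ± 1.07), *Hand2* (35.8 ± 0.589), *Mef2c* (22.6 ± 0.976), *Myocd* (18.2 ± 1.27), *Hand1* (6.28 ± 0.36) and *Prdm16* (5.21 ± 0.556) followed in this order, without overlap between neighbours. In *Nrg1GOF* the same order held except that *Srf* (74.2 ± 6.09 CPM per kb) stood before *Mef2a* (72.6 ± 5.25), and the libraries of *Srf*, *Mef2a*, *Gata4* and *Nkx2-5* overlapped from neighbour to neighbour. The length chosen matters for *Mef2a*, whose exons span 14681 bases in union against 5538 in the longest transcript. By the union length its WT mean was 33.5 ± 2.49 CPM per kb, below *Srf*, *Gata4* and *Nkx2-5*, and its libraries (31.5 to 36.7) overlapped those of *Gata6* (35.2 to 36.6) and *Hand2* (35.3 to 36.7), while *Myocd* passed *Mef2c* and *Hand1* and *Prdm16* stayed the lowest.

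The paralogues and partners of these factors were compared next, in a list of 26 genes of which 23 passed the filter. Of these, 5 were called higher and 7 lower, and 11 were not called (52.2% called, beside 28.7% of all tested genes). With WT libraries 1 and 2 as the sole controls 3 were called higher and 3 lower (18.6% of all tested genes called). The counts were the same with the WT pairs summed (15.3%). With WT libraries 3 and 4 as the sole controls 7 were called higher and 4 lower (27.7%). The list median was 0.01 on the log2 scale, on which the differences of these genes and of the targets are given. The largest rise was that of *Gata5*, which like *Gata4* and *Gata6* is used in endocardium and epicardium, at 6.57, 7.09, 4.08 and 3.73 CPM in WT libraries 1 to 4 and 16.4, 14.9, 16.2 and 10.5 CPM in *Nrg1GOF* libraries 1 to 4. All *Nrg1GOF* libraries were higher, a log2 difference of 1.45 ± 0.22 (SE) at an adjusted p of 0.00116, so that *Gata4*, *Gata5* and *Gata6* each had a different outcome (not called, higher and lower). *Twist1* and *Twist2*, basic helix-loop-helix genes of mesenchyme, rose as well, by 1.14 ± 0.27 (SE, adjusted p = 0.0115) and 1.42 ± 0.37 (SE, adjusted p = 0.0168), the latter at 6 to 50 counts per library. *Mecom*, the closest relative of *Prdm16*, rose by 0.41 ± 0.11 (SE, adjusted p = 0.0165) while *Prdm16* was lower. *Tcf12*, an E protein that pairs with HAND factors, rose by 0.22 ± 0.07 (SE, adjusted p = 0.0389), whereas *Tcf3* and *Tcf4* were at -0.06 and -0.02 and were not called. The genotypes overlapped for *Tcf12* (123 CPM in *Nrg1GOF* library 4 against 124 CPM in WT library 2).

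Among the lower partners, *Hdac9*, a class II histone deacetylase that binds MEF2 and is itself a MEF2 target, changed most, at 82.1, 92.0, 83.2 and 81.2 CPM in WT libraries 1 to 4 and 55.6, 50.2, 51.1 and 46.6 CPM in *Nrg1GOF* libraries 1 to 4. The groups were far apart, a log2 difference of -0.73 ± 0.07 (SE) at an adjusted p of 6.87e-05. *Fhl2*, a LIM-domain cofactor of SRF, was at -0.64 ± 0.08 (SE, adjusted p = 0.000312), and *Zfpm2*, the FOG2 cofactor of GATA4, at -0.44 ± 0.07 (SE, adjusted p = 0.000995). *Hopx*, a homeodomain-only protein that restrains SRF, was at -0.35 ± 0.09 (SE, adjusted p = 0.0136), *Mef2d* at -0.31 ± 0.07 (SE, adjusted p = 0.00833), *Hdac5* at -0.21 ± 0.06 (SE, adjusted p = 0.0284) and *Ctbp2*, a corepressor bound by PRDM16, at -0.18 ± 0.05 (SE, adjusted p = 0.0374). The myocardin relatives *Mrtfa* (0.01) and *Mrtfb* (0.03) were not called, nor were *Zfpm1*, *Smyd1*, *Camta2*, *Ep300*, *Ctbp1*, *Hdac4* and *Hdac7* (0.00 to 0.34 except *Ctbp1* at -0.04). *Isl1* and *Mef2b* were at 15 counts or fewer in every library and *Nkx2-6* had no counts, so these 3 were not tested.

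**Figure D3:**
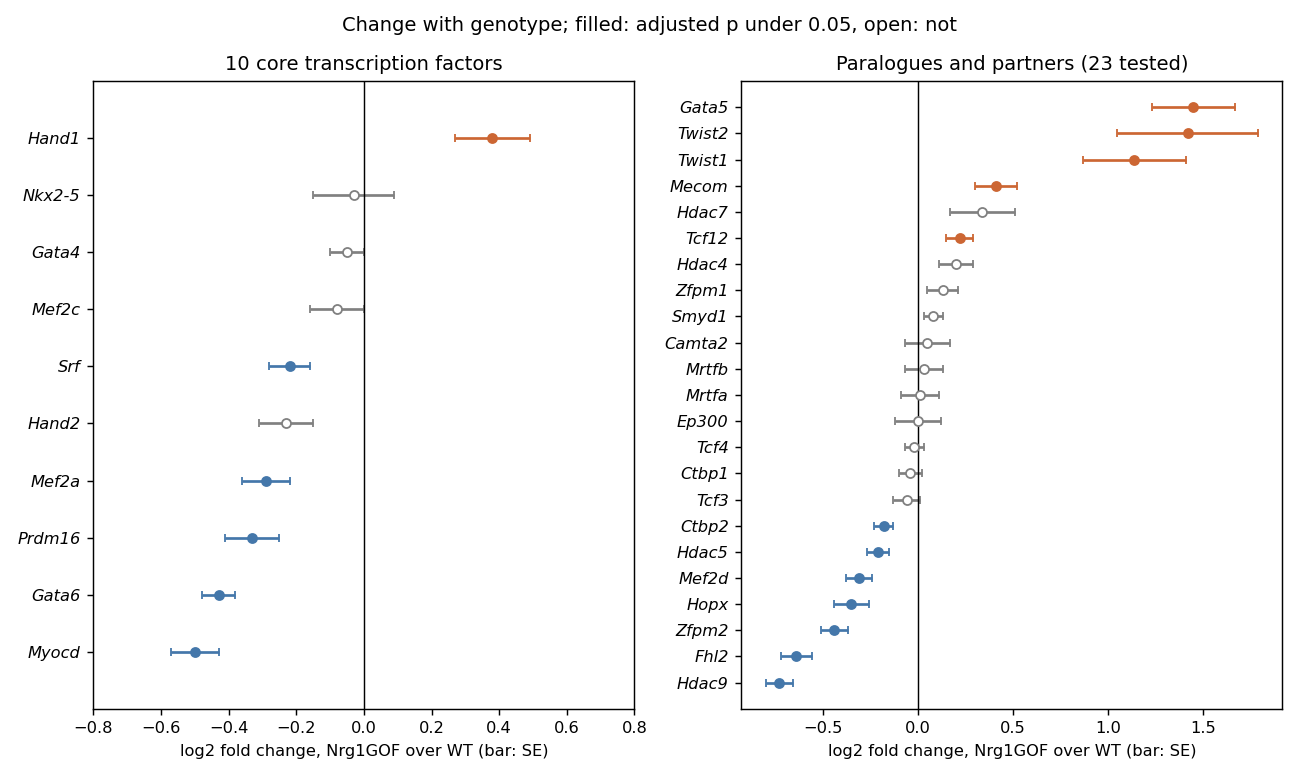
Log2 fold change of *Nrg1GOF* over WT (x axis, bars are SE) for the 10 core factors (left) and the 23 tested paralogues and partners (right, wider axis). Filled points passed an adjusted p of 0.05, and the core factors span -0.50 (*Myocd*) to 0.38 (*Hand1*) while the partners span -0.73 (*Hdac9*) to 1.45 (*Gata5*).

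Targets of these factors did not follow the direction of the factors uniformly. Of 20 genes listed as targets of SRF and myocardin, 19 were tested, of which 7 were called higher and 2 lower (47.4% called, beside 28.7% of all tested genes, list median 0.18), although *Srf* and *Myocd* were lower. The lower genes were *Acta2*, smooth muscle actin, at 1150, 1108, 991 and 1087 CPM in WT libraries 1 to 4 and 622, 657, 645 and 739 CPM in *Nrg1GOF* libraries 1 to 4, and *Vcl*, which encodes vinculin. *Acta2* was at -0.70 ± 0.07 (SE, adjusted p = 0.000111) and *Vcl* at -0.29 ± 0.04 (SE, adjusted p = 0.00101). *Tagln*, the smooth muscle protein transgelin, was at 38.3, 34.9, 18.5 and 19.0 CPM in WT libraries 1 to 4 and 63.5, 68.3, 61.6 and 60.0 CPM in *Nrg1GOF* libraries 1 to 4, with WT libraries 3 and 4 lowest. On the log2 scale it differed by 1.2 ± 0.22 (SE, adjusted p = 0.00313), *Pdlim7* by 0.73 ± 0.10 (SE, adjusted p = 0.000658) and *Actg2*, at 16 to 71 counts per library, by 0.76 ± 0.24 (SE, adjusted p = 0.0396). *Actc1*, the main actin of heart muscle and the most abundant of the list, was at 0.00 ± 0.06 (SE, adjusted p = 0.992). A CArG box stood in 5 of 19 searched windows of this list (26.3%), those of *Acta1*, *Actc1*, *Cnn2*, *Fhl1* and *Vcl*. The genes with these boxes moved in different directions. *Vcl*, with the box at -227, was lower, *Cnn2*, with the box at -56, was higher at 0.49 ± 0.06 (SE, adjusted p = 0.000332), *Fhl1* was higher at 0.18 ± 0.05 (SE, adjusted p = 0.0349), and *Actc1* and *Acta1* were not called. *Cnn2*, *Fhl1* and *Acta1* are named for their boxes, after their values were seen.

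Of 12 MEF2 targets, 2 were called higher and 6 lower (66.7% called, beside 28.7% of all tested genes, list median -0.17). *Mb*, myoglobin, was at 768, 729, 767 and 747 CPM in WT libraries 1 to 4 and 231, 220, 172 and 311 CPM in *Nrg1GOF* libraries 1 to 4, a log2 difference of -1.69 ± 0.15 (SE) at an adjusted p of 5.94e-05. *Ppargc1a*, a coactivator of mitochondrial genes, was lower at -0.90 ± 0.05 (SE, adjusted p = 3.73e-06), and *Ckm*, muscle creatine kinase, which had the highest CPM of the list on average over the 8 libraries though *Myom1* was above it in all 4 *Nrg1GOF* libraries, at -0.74 ± 0.09 (SE, adjusted p = 0.00041). *Xirp2*, an actin-binding protein of the intercalated disc whose MEF2 box is printed above, was at 8.22, 7.31, 5.62 and 7.74 CPM in WT libraries 1 to 4 and 26.6, 21.8, 16 and 23.9 CPM in *Nrg1GOF* libraries 1 to 4. It was higher in every *Nrg1GOF* library, a log2 difference of 1.61 ± 0.17 (SE) at an adjusted p of 0.000138, and *Nr4a1* was higher at 0.52 ± 0.11 (SE, adjusted p = 0.00524). *Pgam2*, named for its MEF2 box, was lower at -0.24 ± 0.08 (SE, adjusted p = 0.0434), with overlap between the genotypes (262 CPM in *Nrg1GOF* library 4 against 256 and 261 CPM in WT libraries 3 and 4). A MEF2 box stood in 3 of 12 windows of this list (25.0%), those of *Xirp2*, which was higher, *Pgam2*, which was lower, and *Klf2*, which was not called (0.15 ± 0.09 (SE, adjusted p = 0.243)) and is named for its box.

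Of 12 targets of NKX2-5 and GATA4, 6 were called higher and 3 lower (75.0% called, beside 28.7% of all tested genes, list median 0.51), although neither factor was called. The number called lower was 1 without *Nrg1GOF* library 2, WT library 2, WT library 3 or WT library 4 and with WT libraries 3 and 4 as the sole controls. It was 0 with WT libraries 1 and 2 as the sole controls or the WT pairs summed. *Nppb*, which encodes B-type natriuretic peptide and has 2 GATA motifs in the printed window, was at 65.0, 65.4, 74.9 and 80.4 CPM in WT libraries 1 to 4 and 327, 349, 270 and 417 CPM in *Nrg1GOF* libraries 1 to 4. The *Nrg1GOF* libraries were all far above WT, a log2 difference of 2.25 ± 0.13 (SE) at an adjusted p of 5.88e-06. *Ankrd1*, a stress-responsive ankyrin repeat protein, was at 684, 653, 565 and 568 CPM in WT libraries 1 to 4 and 1472, 1409, 1373 and 1567 CPM in *Nrg1GOF* libraries 1 to 4, a log2 difference of 1.24 ± 0.08 (SE) at an adjusted p of 9.82e-06. *Nppa*, the atrial natriuretic peptide gene, rose most on the list, by 2.48 ± 0.16 (SE, adjusted p = 9.92e-06). The lower genes were the troponin genes *Tnni3*, at -0.37 ± 0.09 (SE, adjusted p = 0.0102), and *Tnnc1*, at -0.28 ± 0.09 (SE, adjusted p = 0.0367), and *Corin*, the enzyme that activates atrial natriuretic peptide, at -0.21 ± 0.06 (SE, adjusted p = 0.0264). *Myh6*, which had the highest CPM of the list on average over the 8 libraries though *Nppa* was above it in 3 of 4 *Nrg1GOF* libraries, was not called, with a log2 difference of 0.51 ± 0.21 (SE) at an adjusted p of 0.105. Its WT libraries fell into their pairs, at 3718 and 3639 CPM in libraries 1 and 2 and at 2003 and 1960 CPM in libraries 3 and 4. A GATA motif stood in 7 of 13 windows of this list (53.8%), beside 26.5% of all windows.

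**Figure D4:**
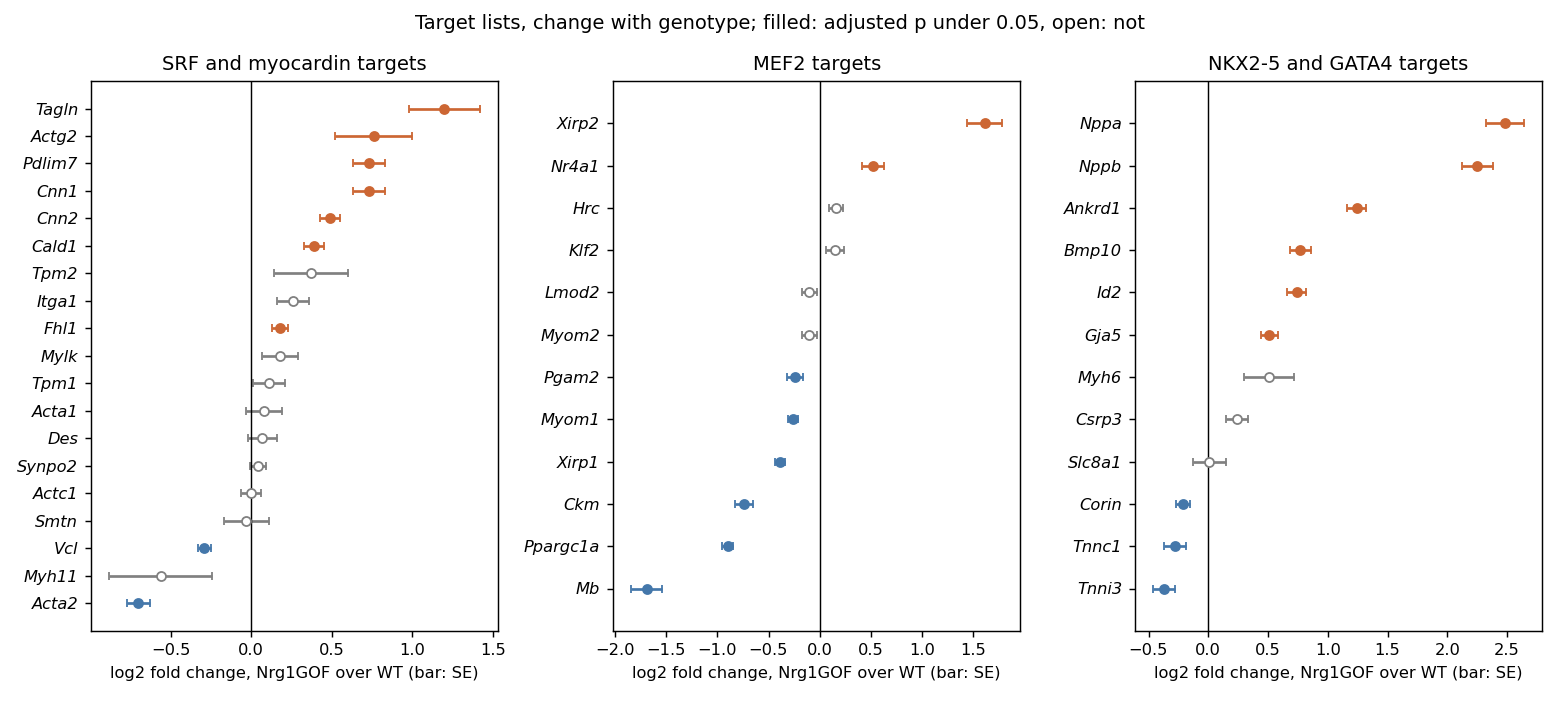
Log2 fold change of *Nrg1GOF* over WT (x axes differ, bars are SE) for tested targets of SRF and myocardin (19), of MEF2 (12) and of NKX2-5 and GATA4 (12). Filled points passed an adjusted p of 0.05, and each panel holds called genes on both sides of 0.

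Markers of the cells in the tissue moved with genotype and are given beside these results. Their counts of calls stand beside 15.9% of all tested genes called higher and 12.8% called lower. The 10 cardiomyocyte markers passed the filter and summed to 41655 to 43150 CPM in WT and 28082 to 34920 CPM in *Nrg1GOF*. Of them 7 were called lower, and the median log2 fold change of the 10 was -0.43. Among the core factors *Gata6* was at -0.43, *Myocd* at -0.50 and *Mef2a*, *Srf* and *Prdm16* at -0.33 to -0.22. *Hand2* was at -0.23, *Mef2c* at -0.08, *Gata4* at -0.05, *Nkx2-5* at -0.03 and *Hand1* at 0.38. All 8 fibroblast and mesenchymal markers were called higher (4000 to 5456 CPM summed in WT, 7430 to 9534 CPM in *Nrg1GOF*), as were 5 of 6 macrophage markers (40.8 to 47.4 and 77.1 to 87.6 CPM), 6 of 10 endothelial and endocardial markers (1279 to 1331 and 1462 to 1571 CPM) and 3 of 6 atrial markers (1001 to 1120 and 1601 to 1774 CPM). Of 7 epicardial markers 4 were higher and 1 lower (168 to 195 and 209 to 241 CPM), and of 6 mural markers 2 were higher and 2 lower (627 to 743 and 623 to 672 CPM). Of 7 red blood cell markers 0 were called by edgeR, DESeq2 or limma-voom, and 0 had an unadjusted p under 0.05 in edgeR (4406 to 13014 and 5419 to 8883 CPM). With WT libraries 1 and 2 as the sole controls 5 of the 7 were called, beside 18.6% of all tested genes. With WT libraries 3 and 4 as the sole controls 3 of the 7 were called, beside 27.7%. *Hba-a2*, an alpha globin gene that can share reads with its near-identical copy *Hba-a1* and was named after its values were seen, was at 2035, 2065, 772 and 549 CPM in WT libraries 1 to 4 and 953, 1011, 865 and 1269 CPM in *Nrg1GOF* libraries 1 to 4, so the *Nrg1GOF* libraries lay between the WT pairs. Of 3 tested neuronal and neural crest markers 1 was higher (8.51 to 13.6 and 6.75 to 15.1 CPM for the 5 listed). No listed marker was at 0 in all libraries. The part of these cell types in the changes of the core factors, of *Gata5* and of *Twist1* and *Twist2* was not tested.

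**Figure D5:**
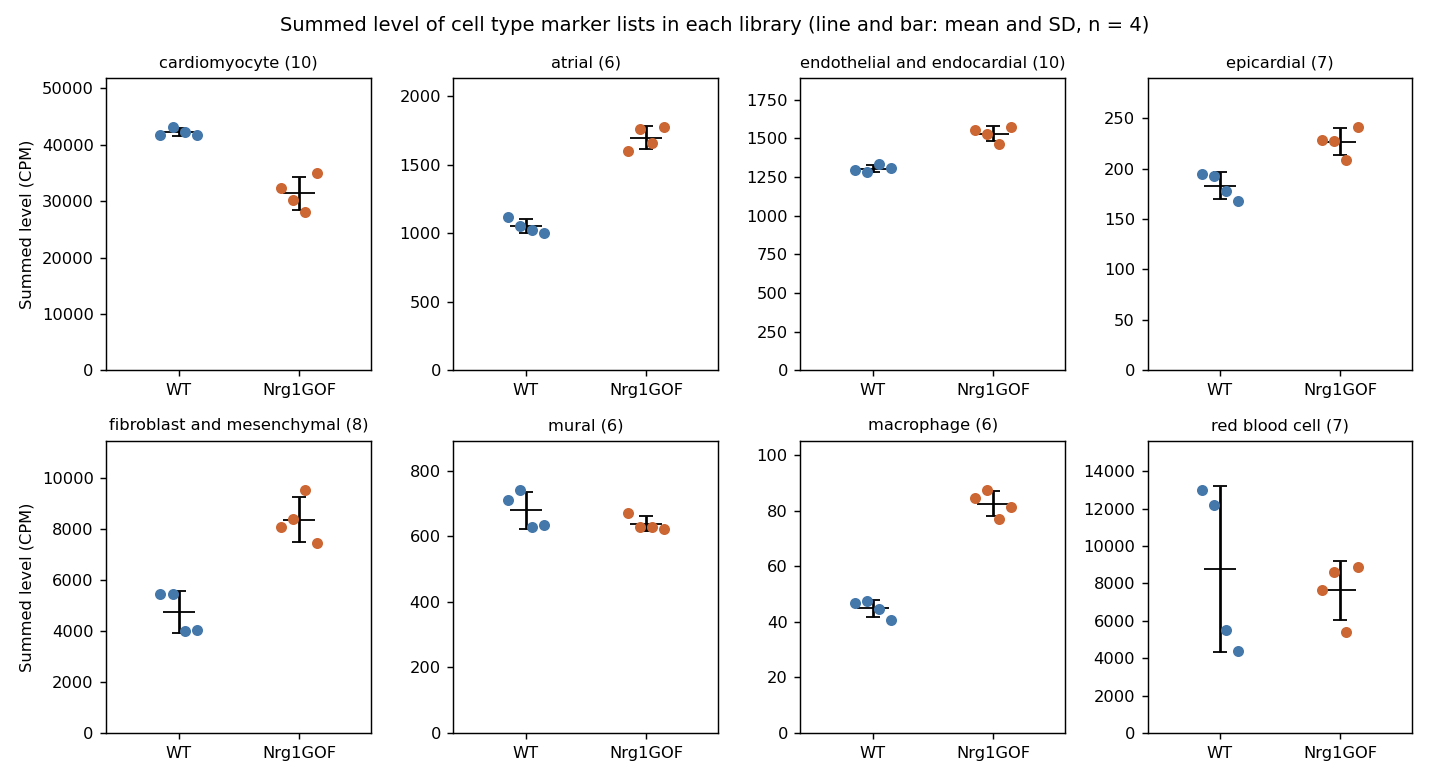
Summed level in CPM (y axis, from 0) of 8 lists of cell type markers in each library (points), with the group mean and SD. The number of genes is in brackets, and the cardiomyocyte sum is lower in all *Nrg1GOF* libraries while the atrial, endothelial, epicardial, fibroblast and macrophage sums are higher.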

How the data were processed

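Ventricle RNA of 8 mouse embryos at E15.5 (100 ng, poly(A), directional kit, single reads of 60 bases) was analysed. The authors deposited expected counts per gene, estimated with RSEM 1.3.1 after cutadapt per the submitters' processing notes, on GRCm38 with Ensembl release 91 per the file name. Aligner and strand setting are not given in the sources used here. Groups and replicate numbers came from sample titles. Whether libraries came from separate litters is not stated. The p-values weigh the difference between genotypes against the spread between these libraries, which may not stand for the spread between litters.

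Counts were rounded. Genes were kept by filterByExpr, scaled by TMM and tested in edgeR 4.0.16 by its quasi-likelihood method (R 4.3.3, two-sided, genotype as the sole term, Benjamini-Hochberg over 15580 genes). SE was taken from each log2 difference and the root of its F value. The script was tested on simulated data. Ratios used log2 CPM with a pseudocount of 0.5 CPM and an exact permutation test (scipy 1.17.1). Coordinates, lengths and GC content came from GENCODE M21 (GRCm38), a later release than that used for counting.

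The core factors and the gene lists were chosen with earlier results of these data known. Named genes are the 10 factors, all listed paralogues and partners, the gene with the highest mean CPM and up to 3 called genes in each direction per target list, and the 3 genes most like *Gata6* and *Nkx2-5*. Alternatives were other scalings, tests (likelihood ratio, DESeq2 1.42.0, limma-voom 3.58.1) and filters, unrounded counts, a replicate block, an offset for GC content and length, thinning to the smallest library total, other sets of WT libraries, an atrial covariate and leaving out each library. A level of 3 counts stands for 0.112 to 0.373 CPM of the unscaled total, which covers counting error only.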

Additional observations from a re-analysis of the deposited data

Results flagged for a closer look

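The level of *Gata6* in *Nrg1GOF* library 1 (165 CPM) lay apart from the other *Nrg1GOF* libraries (176 to 178 CPM), with a gap of 0.874 of the range of the group. It was the sole outlying value among 28 groups of 4 values examined (the 10 core factors and the 4 ratios in each genotype), where chance at 1 in 20 gives 1.4. Without this library the log2 fold change of *Gata6* was -0.40 (edgeR quasi-likelihood adjusted p = 0.000662).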

How the results depend on the processing

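Of 250 member fold changes recomputed under an alternative, 209 kept their sign and their side of the threshold, 28 lost their call with the same sign, 8 gained a call and 5 changed sign. The reversals were *Nkx2-5*, at 0.013 when scaled by library total, 0.063 without *Nrg1GOF* library 1 and 0.016 without *Nrg1GOF* library 3 (-0.14 without *Nrg1GOF* library 4, the lowest when single libraries were left out), and, with the atrial covariate, *Mef2c* at 0.10 and *Hand1* at -0.48. The atrial covariate correlated with genotype at 0.985, and with it 0 core factors, 0 partners and 0 genes of each target list were called, as were 0 of all tested genes in edgeR (at an unadjusted p under 0.05, 3 core factors, 1 partner, 3 genes of each target list and 1123 of all). No other tool was run with it. Of the 8 core factors that kept their sign with it, the size of the fold change was larger for 7 (*Nkx2-5* -1.40, *Hand2* -0.96, *Myocd* -0.87, *Prdm16* -0.76, *Gata6* -0.71, *Srf* -0.71, *Gata4* -0.36) and was smaller for *Mef2a* (-0.21), and the cause was not tested. With the WT pairs summed, 2 core factors (*Gata6* and *Myocd*) and 6 partners were called. With WT libraries 3 and 4 as the sole controls 2 core factors and 11 partners were called, and with WT libraries 1 and 2 it was 4 and 6. Over all tested genes 4467 were called, against 2464 with the WT pairs summed, 2999 with WT libraries 1 and 2 and 4487 with WT libraries 3 and 4 as the sole controls. The cause of these differences was not tested.

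Leaving out each library in turn gave 3 to 7 core factors called (3 without *Nrg1GOF* library 2, namely *Gata6*, *Mef2a* and *Myocd*), 9 to 11 partners, 7 to 10 SRF and myocardin targets, 7 to 8 MEF2 targets and 7 to 9 NKX2-5 and GATA4 targets. The share of all tested genes called in these fits ran from 20.4% (without *Nrg1GOF* library 2) to 27% (without *Nrg1GOF* library 3). The ratio differences ranged from 0.36 to 0.38 (*Gata4*/*Gata6*), -0.23 to -0.18 (*Mef2a*/*Mef2c*), 0.53 to 0.68 (*Hand1*/*Hand2*) and -0.34 to -0.22 (*Myocd*/*Srf*). With 4 libraries against 3 the exact test cannot give a p under 0.0571.

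Same-numbered libraries correlated in their deviations from the group means at 0.049 to 0.199 (mean 0.111), and differently numbered ones at -0.263 to 0.187. The labels do not say that equal numbers share a litter or batch, so the numbers were not taken as pairs in the main fit. With the replicate block 7 core factors were called (*Hand2* added, log2 fold change -0.23, adjusted p = 0.043), and with the block plus that offset (GC content, length) 6, without *Hand1* (0.27, adjusted p = 0.0823). Of all tested genes 29% were called with the block and 34.4% with the block plus offset. As differences of same-numbered libraries the ratios were 0.38, -0.21, 0.60 and -0.28, each at the smallest p that 4 pairs allow (0.125, exact sign-flip permutation test). Thinned to the smallest library total, *Hand1* was at 0.44 (adjusted p = 0.0162), *Prdm16* at -0.32 (adjusted p = 0.0367) and *Hand2* at -0.25 (adjusted p = 0.0445, called).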
